A study of Mus musculus with 8 samples.

Results

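The transcripts of 8 genes of the Smad2/3 branch were followed across cultured mouse molar tooth germs: the feedback genes Pmepa1, Bambi, Skil, Ski and Tgif1, and the secreted target genes Tgfbi, Thbs1 and Ccn2. They were taken from the deposited count table by gene name, 8 of the 35896 genes in it, and all 8 passed the filter on low counts. Molar germs, from which the molar teeth develop, were dissected from BRE-GFP embryos, which carry a fluorescent reporter of BMP-Smad signalling, and cultured for 1 day in medium with serum. The groups were E12.5 germs with SB431542 (which blocks the kinases of the type I receptors for TGF-beta and activin), E12.5 germs with SIS3 (an inhibitor of Smad3), E13.5 germs with the solvent DMSO, and E12.5 germs with DMSO, and all groups share the reporter and the culture. The sources used here give neither the doses nor the number of germs in a sample. Each group has 2 deposited columns, which gave 1 library each for SB431542, E13.5 DMSO and E12.5 DMSO and 2 libraries for SIS3 once near-identical columns were summed. The study set BMP-Smad outputs of the dental mesenchyme against the TGF-beta and activin branch, and the inhibitor groups ask which transcripts need that branch.

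TGF-beta and activin ligands bring type II and type I receptors together, the type I kinase phosphorylates Smad2 and Smad3, and these enter the nucleus with Smad4 to regulate transcription. Among the genes they induce are inhibitors of the same pathway, which form a negative feedback loop, and secreted matrix or matricellular proteins. Pmepa1 encodes a membrane protein that keeps Smad2 and Smad3 from being phosphorylated by the type I receptor. Bambi encodes a pseudoreceptor that lacks the kinase domain, and it is known as a target of BMP and Wnt signals too. Skil (SnoN), Ski and Tgif1 encode nuclear corepressors that bind Smads on DNA. Tgfbi encodes a secreted adhesion protein of the matrix, Thbs1 encodes thrombospondin 1, which can release TGF-beta from its latent form, and Ccn2 (connective tissue growth factor) is a matricellular protein whose gene also answers to YAP and TEAD. In the tooth germ, exchange of TGF-beta family signals between epithelium and mesenchyme drives the passage from bud to cap.

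Promoter sequence was at hand in the RefSeq table (GRCm38.p6) for 3 of the 8 genes, Ski, Tgif1 and Tgfbi. Windows of 250 bases before the RefSeq start site were searched, and they are shown, as far as the first base that GENCODE annotates as the gene, for Tgif1, the feedback gene with the highest fold change under SIS3, and for Tgfbi, the secreted gene that differed most between the stages. Capitals mark CAGAC, the core letters of a Smad binding element, and GGCGC, the letters of a GC-rich Smad motif, on either strand. The Tgif1 stretch is chr17:70853547-70853782 (236 bases, minus strand, from the most upstream of 5 starts in the table), and the Tgfbi stretch is chr13:56609336-56609522 (187 bases, plus strand).
Tgif1: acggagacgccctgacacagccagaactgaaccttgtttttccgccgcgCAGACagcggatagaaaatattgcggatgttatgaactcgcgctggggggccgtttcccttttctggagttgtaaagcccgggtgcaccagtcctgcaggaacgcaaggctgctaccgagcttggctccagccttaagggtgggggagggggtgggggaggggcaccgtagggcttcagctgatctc
Tgfbi: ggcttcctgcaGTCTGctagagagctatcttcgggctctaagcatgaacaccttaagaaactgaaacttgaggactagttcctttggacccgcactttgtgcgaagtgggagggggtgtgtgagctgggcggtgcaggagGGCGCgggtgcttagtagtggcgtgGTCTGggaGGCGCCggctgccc

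The Tgif1 window holds 1 CAGAC, 201 bases before the start site, and 0 GGCGC. The Tgfbi window holds 2 CAGAC, at 239 and 85 bases before the start, and 3 GGCGC, of which 2 overlap on opposite strands at 77 and 76 bases. The Ski window, on chromosome 4, holds 0 CAGAC and 7 GGCGC. Of 32851 mouse promoter windows of the same length in the table, 42.2% hold CAGAC and 32% hold GGCGC, so both sets of letters are common. The palindrome GTCTAGAC, held by 0.167% of the windows, and the AP-1 letters TGANTCA, held by 6.75%, are in none of these 3 windows. A match is a description of letters and not a bound site.

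Whether the columns are replicates decides every error given here. The 2 columns of SB431542, E13.5 DMSO and E12.5 DMSO had totals that differed by 0.00212%, 0.00749% and 0.00168%, and over genes with 1 annotated transcript their squared difference had a median of 1.26, 1.22 and 1.3 times that of dividing 1 set of reads at random. For the SIS3 columns the totals differed by 44.5% and that ratio was 8.05. Over all genes the medians were 2.01, 1.61 and 2.05, against 11.4 for SIS3. The means were 3.37, 2.66 and 3.46, against 23.6. Ccn2 at E13.5 (418 and 553 counts) had a squared difference of 18.8 times that of random dividing. Tgfbi with SB431542 had 8.47, and Thbs1 and Skil at E13.5 had 8.42 and 7.16. All other values of the 8 genes in the 3 pairs were at most 2.83. By these medians and means, the 3 pairs differed by more than random dividing gives, but by far less than SIS3. Each of the 3 near-identical pairs was therefore summed and counted as 1 sample. Library totals were 28161788 counts for SB431542, 5995709 and 9427262 for the SIS3 libraries, 17519118 for E13.5 DMSO and 30975010 for E12.5 DMSO. The TruSeq RNA kit v2 was used for the SIS3 libraries and the SMARTer Universal Low Input kit for all others, so SIS3 and the kit cannot be told apart in any SIS3 value below. Nothing in the labels says that the SIS3 libraries came from separate cultures, and their spread, the only one in the data, may be technical.

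Levels are given as CPM, in which each count is divided by the sum of its column or library. Pmepa1 (ENSMUSG00000038400) lies on chromosome 2 of GRCm38, from 173224458 to 173276533 on the minus strand. It had 186 and 190 counts in the SB431542 columns, which is 13.4 CPM in their sum, against 42 and 35.3 CPM in the SIS3 columns, 91.6 and 86.3 CPM in the E13.5 DMSO columns, and 49.1 and 49.3 CPM in the E12.5 DMSO columns. The SB431542 columns were the lowest and the E13.5 columns the highest, and no groups overlapped. Skil (ENSMUSG00000027660; chromosome 3, 31095058 to 31122577, plus strand) stood at 49.5 and 47 CPM with SB431542, 256 and 163 CPM with SIS3, 178 and 161 CPM at E13.5 and 170 and 172 CPM in E12.5 DMSO. Only SB431542 stood apart, since the SIS3 columns lay on either side of the E12.5 DMSO columns and overlapped those of E13.5.

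Ski (ENSMUSG00000029050; chromosome 4, 155154075 to 155222592, minus strand) stood at 313 and 310 CPM with SB431542, 239 and 266 CPM with SIS3, 309 and 302 CPM at E13.5 and 330 and 331 CPM in E12.5 DMSO. It varied least among the feedback genes, with the SIS3 columns lowest. Tgif1 (ENSMUSG00000047407; chromosome 17, 70844205 to 70853546, minus strand) stood at 47.3 and 43 CPM with SB431542, 78.9 and 80.7 CPM with SIS3, 32.2 and 33.9 CPM at E13.5 and 41.2 and 42.3 CPM in E12.5 DMSO. The SIS3 columns were the highest and close to each other. Bambi (ENSMUSG00000024232; chromosome 18, 3507923 to 3516404, plus strand) stood at 32.1 and 31.8 CPM with SB431542, 33.5 and 30.2 CPM with SIS3, 28.2 and 28.9 CPM at E13.5 and 46.4 and 43.1 CPM in E12.5 DMSO. Here the E12.5 DMSO columns were above all the others, and the SB431542 columns lay between the SIS3 columns.

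Of the secreted genes, Tgfbi (ENSMUSG00000035493; chromosome 13, 56609523 to 56639562, plus strand) stood at 118 and 130 CPM with SB431542, 279 and 134 CPM with SIS3, 81.6 and 77.1 CPM at E13.5 and 143 and 145 CPM in E12.5 DMSO. Its SIS3 columns differed by more than any groups of the SMARTer libraries did. Thbs1 (ENSMUSG00000040152; chromosome 2, 118111876 to 118127133, plus strand) stood at 231 and 234 CPM with SB431542, 237 and 215 CPM with SIS3, 182 and 201 CPM at E13.5 and 237 CPM in both E12.5 DMSO columns. It was nearly level over the E12.5 groups. Ccn2 (ENSMUSG00000019997; chromosome 10, 24595442 to 24598683, plus strand) stood at 29 and 30.3 CPM with SB431542, 45.9 and 20.8 CPM with SIS3, 47.7 and 63.1 CPM at E13.5 and 46.4 and 46.6 CPM in E12.5 DMSO. The SIS3 columns lay on either side of SB431542. Pseudogene copies took few counts (28 for Bambi-ps1 and 1 for Tgif1-ps over all libraries). An antisense gene is annotated opposite Thbs1 (Gm29233) and another opposite Ccn2 (Gm15270), and the sources used here do not say whether the counting used strand.

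**Figure D1:**
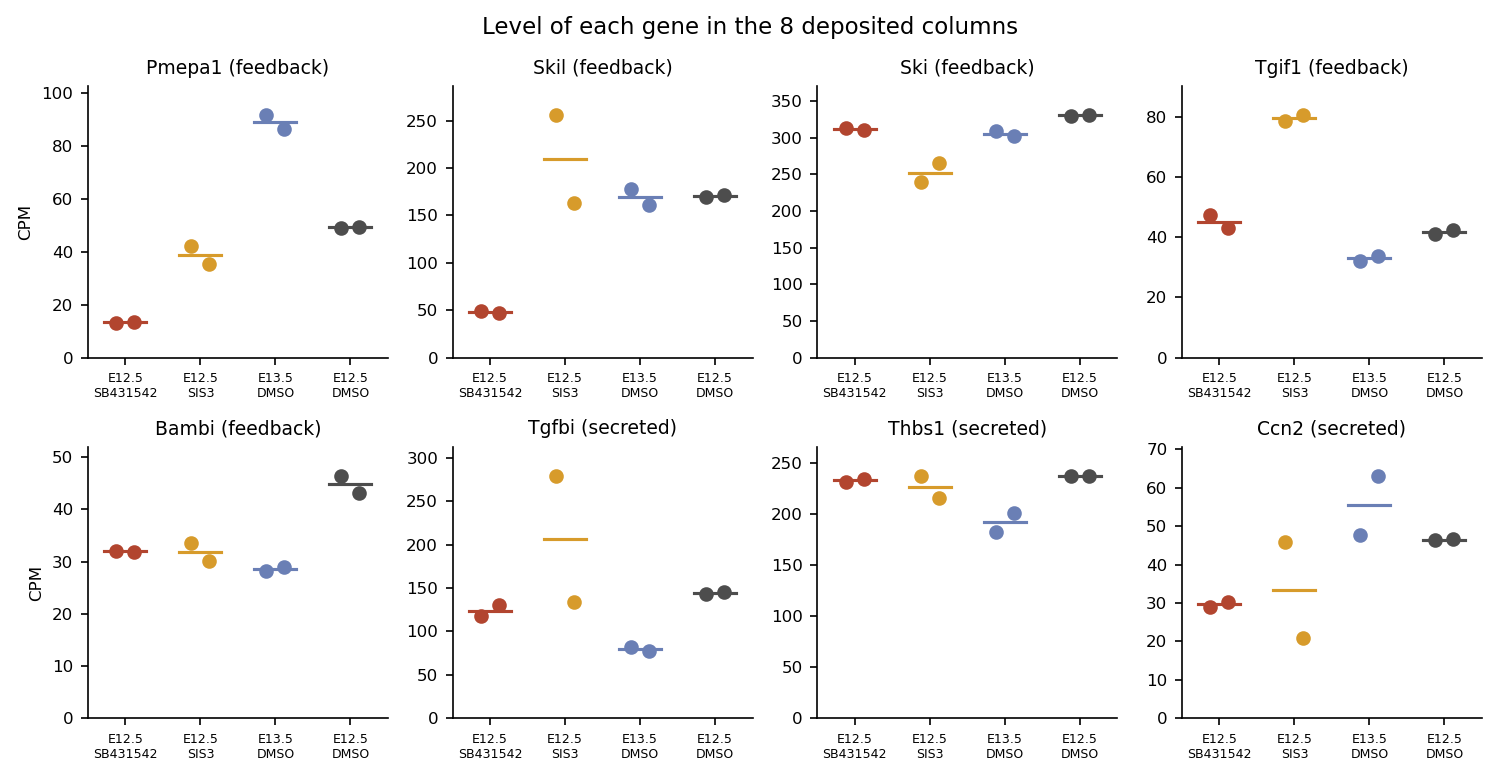
CPM of each of the 8 genes (vertical axis, from 0) in the 2 deposited columns of each group (points), with the line at their mean, for E12.5 SB431542, E12.5 SIS3, E13.5 DMSO and E12.5 DMSO. Pmepa1, near 13.4 CPM, and Skil at 49.5 and 47 CPM are low in the SB431542 columns, while Tgfbi and Ccn2 differ most within the SIS3 pair.

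Relative to the length of the longest transcript, the E12.5 DMSO levels ran from Ski (59.9 CPM per kb) and Tgfbi (47.9) through Thbs1 (40.5), Skil (25.5), Ccn2 (18.7), Tgif1 (13.3) and Pmepa1 (10.8) to Bambi (8.82 CPM per kb). The most and least abundant were thus both feedback genes. In the SIS3 pair the level of library 1 over that of library 2, on the log2 scale, was 1.18 for Ccn2, 1.1 for Tgfbi and 0.698 for Skil, against 0.296 for Pmepa1, 0.194 for Bambi, 0.183 for Thbs1, 0.0116 for Tgif1 and -0.11 for Ski. The SIS3 averages of Ccn2 (33.3 ± 17.7 CPM, SD, n = 2), Tgfbi (206 ± 102 CPM) and Skil (210 ± 66 CPM) therefore carry wide errors, while that of Tgif1 is 79.8 ± 1.3 CPM and that of Pmepa1 38.7 ± 4.74 CPM.

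The first comparison asked what blocking the receptors did. With SB431542 against E12.5 DMSO, 2 of the 5 feedback genes stood far below the control, Pmepa1 at 13.4 against 49.2 CPM in the summed libraries (ratio 0.272, 95% counting interval 0.242 to 0.304) and Skil at 48.3 against 171 CPM (ratio 0.282, 0.265 to 0.299). The intervals cover counting error only. Ski, Tgif1 and Thbs1 stood near the control. In edgeR's fit over all genes the log2 fold change was -1.93 for Pmepa1 (SE 0.406, 95% CI -2.81 to -1.06) and -1.88 for Skil (SE 0.402, 95% CI -2.76 to -1), with 1 library on each side and the spread borrowed from the SIS3 pair.

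Neither difference passed the test. With Benjamini-Hochberg adjustment over 19022 genes, edgeR's quasi-likelihood test gave an adjusted p of 0.534 for Pmepa1 and 0.635 for Skil. It called 0% of the genes, and DESeq2 called 0 higher and 6 lower (0.0484%), with adjusted p of 0.204 for Pmepa1 and 0.0874 for Skil. At an unadjusted p under 0.05 edgeR had 0 of 8 genes higher, against 0.568% of all genes, and 2 of 8 lower, against 0.668% of all genes. The pair ranked 12 (Pmepa1) and 16 (Skil) of all genes by p, and of 12345 genes averaging 5 CPM or more, 30 had a lower fold change than Pmepa1 and 32 a lower one than Skil. With no low-count filter both were called (adjusted p = 0.0116 for Pmepa1 and 0.00149 for Skil), as they were with all 8 columns counted as replicates (0.00131 and 0.0109), a setting that called other members in the other comparisons too. Of all genes, 19 of 27543 were called lower with no filter and 164 of 17748 with the 8 columns as replicates.

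The other log2 fold changes with SB431542 were -0.54 for Bambi (95% CI -1.43 to 0.36), -0.14 for Ski (-0.84 to 0.56) and 0.06 for Tgif1 (-0.73 to 0.85). Among the secreted genes they were -0.70 for Ccn2 (-1.98 to 0.58), -0.27 for Tgfbi (-1.56 to 1.03) and -0.08 for Thbs1 (-0.79 to 0.64). The intervals of Bambi, Tgfbi and Ccn2 reach a 2-fold lower level, so a fall of that size is not excluded for them. As edgeR called no gene in this comparison, a missing call does not show that a member was unchanged. The median was -0.54 over the feedback genes and -0.27 over the secreted genes, beside 0.0016 over all tested genes. The feedback genes thus spread from -1.93 to 0.06, wider than the 3 secreted genes (-0.70 to -0.08), and the difference between the groups was not tested.

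Markers of other cells differed in that library too. Summed over 10 epithelial markers, the level was 42.6 CPM with SB431542 and 132 CPM in E12.5 DMSO, and all 9 tested markers had a negative fold change (median -1.3, 0 called). The 10 dental mesenchyme markers summed to 4390 CPM with SB431542 and 4460 CPM in E12.5 DMSO, and the 10 endothelial markers to 510 and 435 CPM. The largest part of the mesenchyme sum was Prrx1 (1590 and 1480 CPM), and single markers moved both ways, 5 of 10 having a negative fold change. Msx1 stood at 321 against 472 CPM and Dlx2 at 87.1 against 130 CPM, while Pax9 stood at 364 and 363 CPM and Lhx8 at 279 against 206 CPM. The part of the epithelium in the Pmepa1 and Skil values was not tested. In such whole-tissue samples, fewer cells of a type and less RNA per cell cannot be told apart. In SIS3 libraries 1 and 2, made with another kit, the epithelial markers summed to 64 and 258 CPM, and Skil stood at 256 and 163 CPM. Shh was at 0 in SIS3 library 1 and in E13.5 DMSO. How the epithelial sum and Skil go together was not tested.

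**Figure D2:**
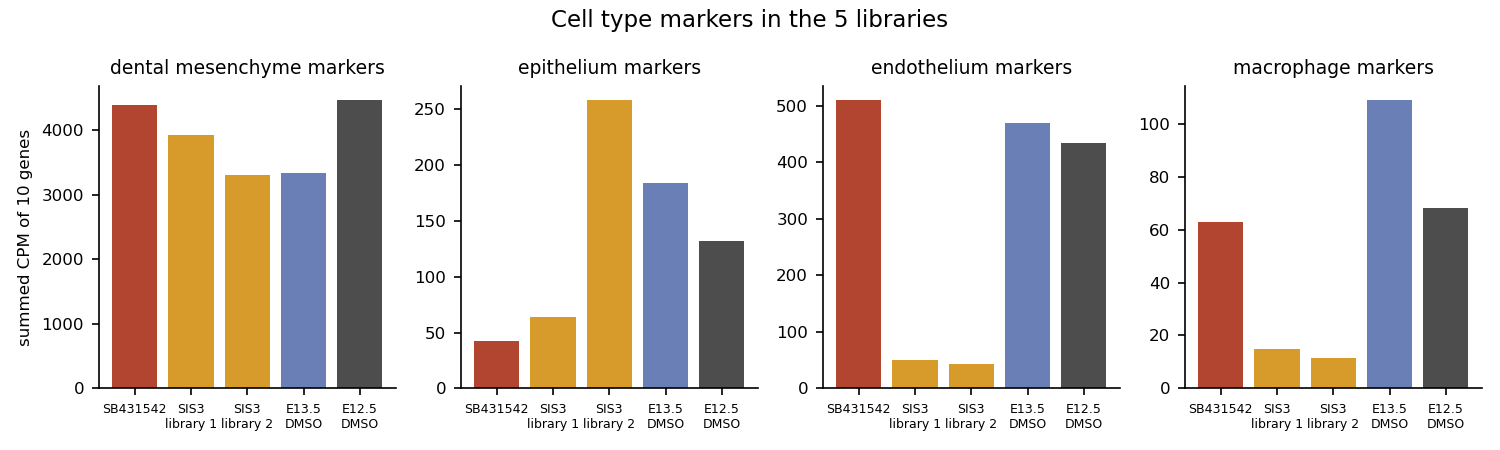
Summed CPM of 10 markers each of dental mesenchyme, epithelium, endothelium and macrophages (vertical axes, from 0) in the 5 libraries (bars): SB431542, SIS3 libraries 1 and 2, E13.5 DMSO and E12.5 DMSO. The epithelial sum ran from 42.6 CPM with SB431542 to 258 CPM in SIS3 library 2, and the endothelial and macrophage sums were low in both SIS3 libraries.

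The second comparison asked what the Smad3 inhibitor did. With SIS3 against E12.5 DMSO neither Pmepa1 nor Skil stood as low as with SB431542, the log2 fold changes being -0.42 for Pmepa1 (95% CI -1.14 to 0.31) and 0.22 for Skil (-0.52 to 0.96). Tgif1 stood at 78.9 and 80.7 CPM in the SIS3 libraries and 41.7 CPM in E12.5 DMSO (log2 fold change 0.86, SE 0.331, 95% CI 0.15 to 1.58), Bambi at 33.5 and 30.2 CPM against 44.8 CPM (-0.56, 95% CI -1.33 to 0.20) and Ski at 239 and 266 CPM against 330 CPM (-0.46, 95% CI -1.06 to 0.14). The secreted genes had log2 fold changes of 0.45 for Tgfbi (95% CI -0.69 to 1.60), -0.14 for Thbs1 (-0.76 to 0.48) and -0.55 for Ccn2 (-1.65 to 0.54). The intervals of Pmepa1, Bambi, Ski and Ccn2 reach a 2-fold lower level, so a fall of that size is not excluded for them.

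edgeR's quasi-likelihood test called 0 of the 8 genes, beside 0.794% of all genes higher and 3.03% lower. DESeq2 also called 0 of the 8, beside 1.56% higher and 2.99% lower, and at an unadjusted p under 0.05 edgeR had 1 of 8 higher, beside 5.82% of all genes, and 0 lower, beside 11%. Tgif1 came nearest, with an adjusted p of 0.196 (unadjusted 0.0213). It stood higher in both SIS3 libraries, and its kit and treatment cannot be told apart. The sign of Tgfbi and of Skil differed between the libraries. Against E12.5 DMSO, Tgfbi had log2 values of 0.902 in SIS3 library 1 and -0.199 in library 2, Skil had 0.531 and -0.167, and Ccn2 had -0.0674 and -1.25. The median was -0.42 over the feedback genes and -0.14 over the secreted genes, beside 0.00 over all tested genes, and the feedback genes ran from -0.56 to 0.86.

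**Figure D3:**
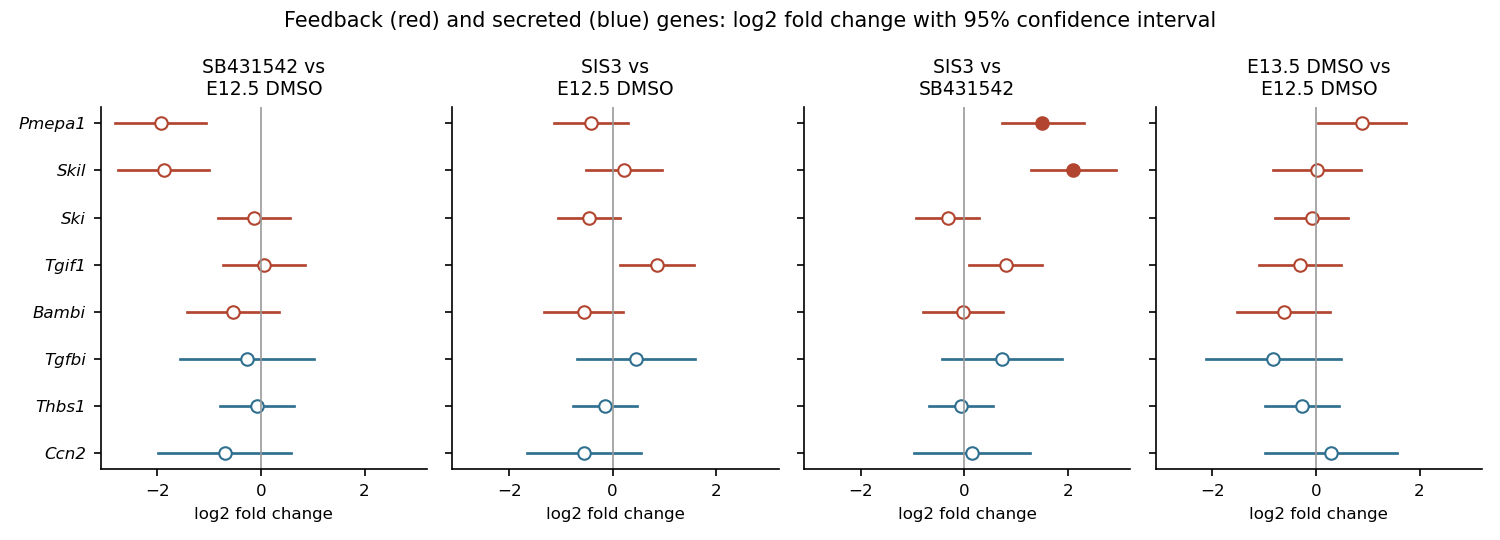
Log2 fold change of each gene (points) with its 95% confidence interval (bars) in 4 comparisons, from edgeR's fit of 5 libraries. Feedback genes are red and secreted genes blue, and filled points passed the test at an adjusted p under 0.05. Filled points stand for Pmepa1 and Skil in SIS3 against SB431542 and for no other gene or comparison.

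The inhibitors were then set against each other, which asks where blocking Smad3 and blocking the receptors differ. Skil was higher with SIS3, at 256 and 163 CPM, than with SB431542, at 48.3 CPM (log2 fold change 2.10, SE 0.375, 95% CI 1.28 to 2.92, adjusted p = 0.0115 by edgeR's quasi-likelihood test). Pmepa1 was higher with SIS3 too, at 42 and 35.3 CPM against 13.4 CPM (1.51, SE 0.368, 95% CI 0.72 to 2.31, adjusted p = 0.0479). These 2 of the 8 genes were called higher, beside 0.499% of all genes, and 0 were called lower, beside 1.95%. At an unadjusted p under 0.05 edgeR had 3 of 8 higher, beside 4.71%, and 0 lower, beside 9.63%. Both were higher in each SIS3 library, by 2.41 and 1.71 for Skil and by 1.66 and 1.36 for Pmepa1 on the log2 scale. Tgif1 had 0.80 (95% CI 0.09 to 1.51, adjusted p = 0.28), and Ski (-0.32), Bambi (-0.02), Tgfbi (0.72), Thbs1 (-0.06) and Ccn2 (0.15) had intervals that include 0.

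DESeq2 also called both, with adjusted p of 1.98e-05 for Skil and 0.0243 for Pmepa1, beside 1.02% of genes higher and 2.09% lower. The call of Skil ended in 2 of 16 refits with a test, with the filter at a mean of 5 CPM (0.0929) and with only the 2 groups in the fit (0.0534). That of Pmepa1 ended in 9 of 16, with adjusted p up to 0.135, among them the refits without the second E12.5 DMSO column (0.0555), without the first (0.0596) or second (0.052) SB431542 column and without the first (0.0689) or second (0.073) E13.5 column, with log2 fold changes of 1.36 to 1.71 throughout. The kit differed along with the inhibitor, and the epithelial markers summed to 64 and 258 CPM with SIS3 and 42.6 CPM with SB431542.

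At the later stage Pmepa1 and Tgfbi had the widest gaps, in opposite directions. The Pmepa1 level in E13.5 DMSO was 88.9 CPM, against 49.2 CPM in E12.5 DMSO (log2 fold change 0.89, SE 0.393, 95% CI 0.04 to 1.73, adjusted p = 0.187 by edgeR's quasi-likelihood test). Tgfbi had 79.3 CPM in E13.5 DMSO and 144 CPM in E12.5 DMSO (-0.83, 95% CI -2.13 to 0.48), and Bambi 28.5 and 44.8 CPM (-0.62, 95% CI -1.52 to 0.28). Skil (0.02), Ski (-0.08), Tgif1 (-0.31), Thbs1 (-0.28) and Ccn2 (0.28) had smaller log2 fold changes. Of the 8 genes 0 were called, beside 4.06% of all genes higher and 1.17% lower, with 1 library on each side. DESeq2 called 0 of the 8 too, beside 2.59% higher and 0.797% lower, and at an unadjusted p under 0.05 edgeR had 1 higher, Pmepa1, beside 15.4% of all genes, and 0 lower, beside 8.88%. The median was -0.08 over the feedback genes and -0.28 over the secreted genes. In E13.5 and E12.5 DMSO the epithelial markers summed to 184 and 132 CPM and the dental mesenchyme markers to 3330 and 4460 CPM. The erythroid markers summed to 335 and 936 CPM and the skeletal muscle markers to 751 and 713 CPM. Among the latter, Myod1 and Pax7 were at 0 at E13.5. The part of these cells in the Pmepa1 and Tgfbi values was not tested.

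Other genes of the same kinds were read from lists. Of 8 further feedback genes 0 were called with SB431542, SIS3 or at E13.5, with medians of -0.092, -0.20 and -0.24, and DESeq2 called 0 of them as well. At an unadjusted p under 0.05, 1 was lower with SB431542, 0 with SIS3 and 1 at E13.5, beside 0.668%, 11% and 8.88% of all genes, and 0 were higher. Smad7, the inhibitory Smad induced by both branches, stood at 92.6 CPM with SB431542, 85.7 and 83.8 CPM with SIS3, 79.6 CPM at E13.5 and 120 CPM in E12.5 DMSO. Its log2 fold changes were -0.43 (95% CI -1.18 to 0.31) with SB431542 and -0.58 (-1.21 to 0.05) with SIS3. Ldlrad4, a relative of Pmepa1, was picked out after its values were seen. It stood at 10.2 CPM with SB431542, 20 and 19.7 CPM with SIS3, 30.8 CPM at E13.5 and 34 CPM in E12.5 DMSO (log2 fold change with SB431542 -1.79, SE 0.477, unadjusted p = 0.00225 and adjusted p = 1 by edgeR). 

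Next came 18 further secreted targets. With SB431542 0 were called by edgeR, which called 0% of all genes there, or by DESeq2. At an unadjusted p under 0.05, 3 of 18 were lower, beside 0.668% of all genes, while 17 of 18 had a negative fold change (median -0.40). The 3 were Ltbp2 (log2 fold change -2.31), Lox (-1.15) and Col1a1 (-0.87), and with SIS3 edgeR called them lower. Lox stood at 89.2 CPM with SB431542 and 191 CPM in E12.5 DMSO, and Col1a1 at 1900 and 3330 CPM. With SIS3, edgeR called 7 lower and 0 higher (median -1.1), beside 3.03% of all genes lower and 0.794% higher. DESeq2 called 6 lower and 1 higher, beside 2.99% and 1.56%. The difference between the inhibitors in these counts was not tested. The genes that fell by edgeR were Col1a1 (log2 fold change -2.53), Col3a1 (-1.16) and Col5a1 (-1.14), which encode collagen chains, Lox (-2.10), whose enzyme crosslinks them, Ltbp2 (-3.10), of the latent TGF-beta binding protein family, Fst (-1.44), encoding the activin antagonist follistatin, and the ligand gene Tgfb1 (-2.48). Col1a1 had 610 and 606 CPM with SIS3 and 3330 CPM in E12.5 DMSO, and Tgfb1 had 4.84 and 7.11 CPM against 31.9 CPM. Ltbp2 rests on few counts, 7 and 4 in the SIS3 libraries (1.17 and 0.424 CPM) against 190 (6.13 CPM) in E12.5 DMSO. With SB431542 it had 36 counts (1.28 CPM). The calls of Col1a1, Lox and Tgfb1 held in all 16 refits with a test. That of Fst ended in 9, among them those without the second E12.5 DMSO column (0.0735) and without either E13.5 column (0.0579 and 0.0587), and that of Col3a1 in 7, among them those without either E13.5 column (0.0538 and 0.0578). The calls of Col5a1 and Ltbp2 ended in 5 and 4.

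None of Tgfbi, Thbs1 and Ccn2 was among the secreted genes called lower with SIS3, which does not show that they were unchanged. Ccn1, a relative of Ccn2, had log2 fold changes of -0.60 (95% CI -1.34 to 0.14) with SB431542 and 0.05 (-0.59 to 0.69) with SIS3. Angptl4, a secreted lipase inhibitor, rose with SIS3 relative to SB431542, at 85.9 and 45 CPM against 9.55 CPM (log2 fold change 2.76, adjusted p = 0.0148 by edgeR). In that comparison Col1a1 (-1.66) and Tgfb1 (-2.26) fell. The calls of Angptl4 and Tgfb1 ended in 3 of 16 refits and that of Col1a1 in 1, with the length and GC trends removed.

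Markers of cell types differed with SIS3 as well. Against E12.5 DMSO, edgeR called 3.03% of all genes lower and DESeq2 2.99%, and the counts below are edgeR's unless DESeq2 is named. The 10 dental mesenchyme markers summed to 3920 and 3310 CPM with SIS3 and 4460 CPM in E12.5 DMSO. Of these 8 had a negative fold change (median -0.37), and edgeR called 1 lower, Dlx2, a homeobox gene of the early dental mesenchyme (66.5 and 42.4 CPM against 130 CPM, log2 fold change -1.33, adjusted p = 0.0465), while DESeq2 called 0. All 10 endothelial markers fell relative to E12.5 DMSO (median -3.5), with sums of 49.9 and 42.5 CPM in the SIS3 libraries and 435 CPM in E12.5 DMSO, and 5 of 10 macrophage markers fell, with sums of 14.7 and 11.5 CPM against 68.4 CPM. In SIS3 library 1 the macrophage marker C1qa was at 0, and in library 2 C1qb and C1qc. The 7 pericyte markers summed to 378 and 393 CPM with SIS3 and 628 CPM in E12.5 DMSO, with 2 of 6 tested lower, and the 6 skeletal muscle markers to 251 and 208 CPM against 713 CPM, with 2 lower. The sums of the 7 erythroid markers were 979 CPM with SB431542, 1230 and 571 CPM with SIS3, 335 CPM at E13.5 and 936 CPM in E12.5 DMSO. The 6 platelet markers summed to 4.05 to 5.57 CPM in 4 libraries and to more in SIS3 library 1, and the 6 neural markers to 19.7 to 28.9 CPM over the 5 libraries. Their part in the values of Tgfb1, Col1a1 and the other secreted genes was not tested.

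**Figure D4:**
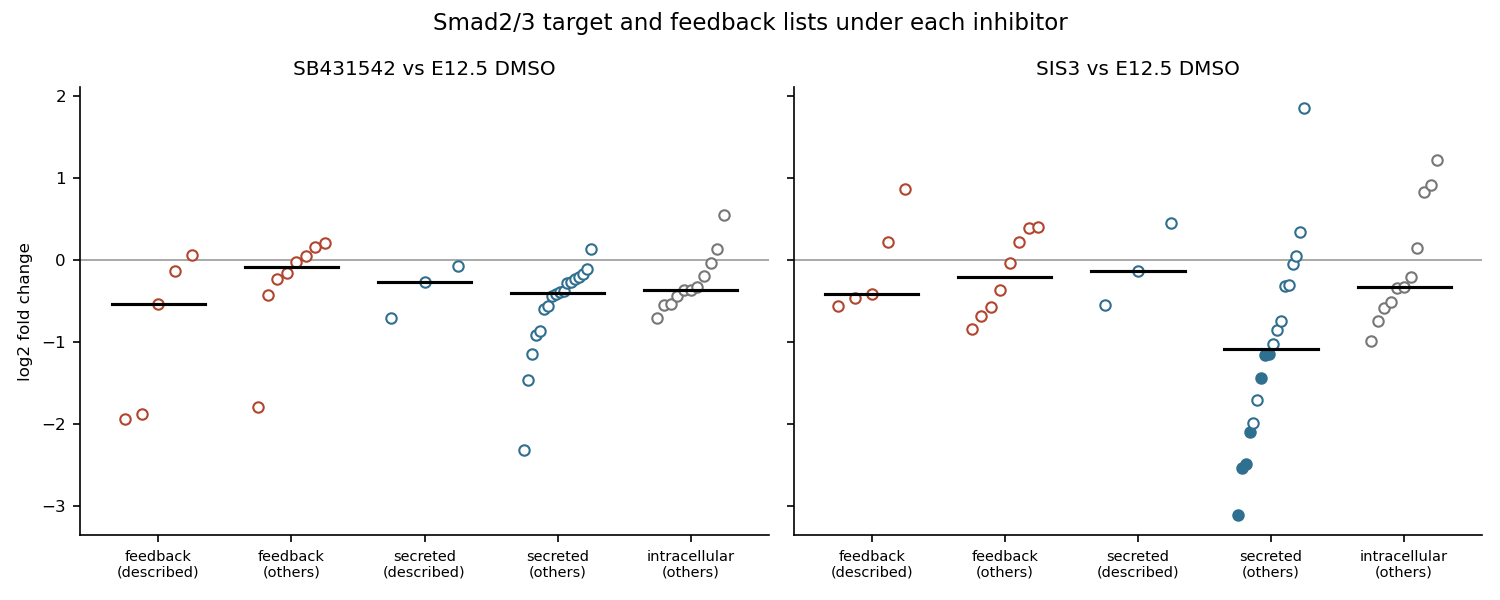
Log2 fold change (vertical axis) of each gene (circles) in the 5 feedback and 3 secreted genes described, 8 other feedback genes, 18 other secreted targets and 11 intracellular targets, with SB431542 (left) and SIS3 (right) against E12.5 DMSO. Lines are medians, and filled circles passed edgeR's test at an adjusted p under 0.05. With SIS3 the filled circles are 7 of the 18 other secreted targets, and with SB431542 there are none.

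Of 11 intracellular Smad2/3 targets 0 were called with either inhibitor by edgeR or DESeq2 (medians -0.36 with SB431542 and -0.33 with SIS3). At an unadjusted p under 0.05, 0 of 11 were past it with SB431542, and 2 were higher and 1 lower with SIS3, beside 5.82% and 11% of all genes. By edgeR 1 of the 11 rose at E13.5, beside 4.06% of all genes, and DESeq2 called 0 there, beside 2.59% higher. It was the smooth muscle gene Tagln (58.4 against 17.5 CPM, log2 fold change 1.77, adjusted p = 0.0482 by edgeR). The call of Tagln ended in 10 of 15 refits, among them those without the second E12.5 DMSO column (0.0663), without either SB431542 column (0.0519 and 0.0521) and without either E13.5 column (0.0699 and 0.0867). Of the 15 ligand, receptor and Smad genes 0 were called with SB431542 by edgeR or DESeq2, with 0 at an unadjusted p under 0.05. With SIS3, 2 fell by both tools, beside 3.03% of all genes by edgeR and 2.99% by DESeq2. They were Tgfb1 and the type II receptor gene Tgfbr2 (78.9 and 55.2 CPM against 160 CPM, -1.33, adjusted p = 0.0322 by edgeR). At an unadjusted p under 0.05, 3 were lower and 1 higher with SIS3, beside 11% and 5.82% of all genes. The call of Tgfbr2 ended in 6 of 16 refits, among them those without either E13.5 column (0.0509 and 0.0551). Relative to SB431542 the 2 genes fell as well, beside 1.95% of all genes by edgeR. There Tgfbr2 had -1.42, and its call ended in 6 of 16 refits, again without either E13.5 column (0.0501 and 0.0551). The type I receptor gene Tgfbr1 stood at 187 CPM with SB431542, 210 and 184 CPM with SIS3 and 181 CPM in E12.5 DMSO, and Smad3 at 157 CPM, 142 and 165 CPM and 129 CPM in the same libraries.

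Of 10 BMP output genes 0 were called in any comparison by edgeR or DESeq2, and 0 had an unadjusted p under 0.05 with either inhibitor. At E13.5, 2 of 10 were lower at that p, Id1 (log2 fold change -1.31, unadjusted p = 0.0115 and adjusted p = 0.102 by edgeR) and Id2 (-0.88, 0.0227 and 0.139), beside 8.88% of all genes, and with no low-count filter Id1 was called (-1.35, adjusted p = 0.0208). Id1, a direct BMP-Smad target, stood at 72.4 CPM with SB431542, 39.9 and 71.9 CPM with SIS3, 26 CPM at E13.5 and 66 CPM in E12.5 DMSO. Of 9 YAP and TEAD targets, a list that includes Ccn1, 0 were called in any comparison by either tool, with medians of -0.18 with SB431542 and -0.28 with SIS3. At an unadjusted p under 0.05, 0 of 9 were past it with SB431542, and 1 was higher and 1 lower with SIS3, beside 5.82% and 11% of all genes. The SB431542 and SIS3 comparisons share the E12.5 DMSO library, so their values stand side by side and were not correlated.

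The genes whose profile lay closest to each member were found by the distance between log2(CPM + 1) profiles centred over the 4 groups, among 12344 genes averaging 5 CPM or more, for the members whose profile spanned at least 1 on that scale. For Pmepa1 (span 2.65) they were Sfn, Frmpd1 and Tnfsf11, at distances of 0.415 to 0.528. For Skil (2.06) they were Rasl11b, Cdh3 and Esrp1, at 0.364 to 0.394. Within the SIS3 pair 2 of the 3 neighbours of each had library 1 below library 2 where the member had it above: Esrp1 stood at 5.17 and 30.9 CPM where Skil stood at 256 and 163 CPM, and Sfn at 3.84 and 16.7 CPM where Pmepa1 stood at 42 and 35.3 CPM. Rasl11b (37.2 and 33.6 CPM) and Tnfsf11 (7.01 and 3.71 CPM) went the way of their member. For Tgif1 (1.25) the closest were Sirt7, 1810013L24Rik and Ubp1, at 0.0537 to 0.0617, and for Tgfbi (1.27) Prmt9, Cdk7 and Thap4, at 0.0203 to 0.057. With 4 values in a profile, these distances describe the libraries and carry no test.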

How the data were processed

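RNA-seq was performed on cultured BRE-GFP molar germs. The authors deposited estimated counts, 1 whole number per gene and column, unscaled. Per the submitters' processing notes, Salmon, HISAT2, SAMtools, deepTools and DESeq2 were used with the build mm10, with no roles or versions. Salmon divides reads shared by transcripts by estimation, so counts of similar genes can move between copies. Of 35896 gene IDs, 35507 matched GENCODE vM21 on GRCm38, the source of coordinates.

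The near-identical paired columns were summed, which left 5 libraries. Differences were tested with edgeR 4.0.16 in R 4.3.3 (TMM, filterByExpr, robust quasi-likelihood F test, Benjamini-Hochberg adjustment at 0.05 over 19022 genes in each of 4 comparisons). The spread has 1 residual degree of freedom, from the SIS3 pair, plus 12.5 borrowed across genes, with a biological coefficient of variation of 29.3%. The robust fit borrows less for genes of outlying spread, among them Tgfbi and Ccn2, whose intervals are wider relative to their SE. Lone libraries are assumed to vary like the SIS3 pair. Library totals of 5995709 to 30975010 counts set the counting precision. A 95% counting interval of a ratio is exact and covers counting error only.

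Alternatives were DESeq2 1.42.0 as a test and for size factors, total counts, a filter at a mean of 5 CPM, no filter, only the 2 groups compared, all 8 columns with and without a block, removal of length and GC trends and of predicted genes, and leaving out each column. The scripts were tested on simulated data. The genes described and the lists (feedback, secreted and intracellular targets, pathway, BMP, YAP and TEAD, and cell type markers) were chosen with earlier results of these data known. Named from the lists of feedback, secreted and intracellular targets, the pathway, BMP, and YAP and TEAD are Smad7, Smad3, Tgfbr1, Id1, Ccn1 and every gene called in a comparison described, and 1 further gene of that rule is not reported here. Sequences come from RefSeq.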

Additional observations from a re-analysis of the deposited data

How the results depend on the processing

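Removing per-library trends of gene length and GC content moved the feedback median to -0.18 with SIS3 and to -0.31 at E13.5, and turned the sign of Thbs1 with SIS3 (0.012 against E12.5 DMSO and 0.0788 against SB431542), of Skil (-0.312) and Ski (0.0733) at E13.5, and of Tgfbr1 (-0.0528) and Id1 (0.0276) with SIS3 and Smad7 (0.0935) and Smad3 (0.115) in SIS3 against SB431542. Skil at E13.5 also turned with total counts only (-0.0128), no filter (-0.0195) and without the first E13.5 column (-0.0491), and Ski at a mean of 5 CPM (0.0116). With SB431542, Tgif1 turned without the first SB431542 column (-0.00587) and Tgfbr1 with DESeq2 (0.0113), DESeq2 size factors (0.0113), total counts (0.0419), a mean of 5 CPM (0.00286) and no predicted genes (0.0118). All of these were small and uncalled, and their cause was not tested. Over the columns left out in turn, the feedback median with SIS3 ran from -0.42 to -0.28 (without the second SIS3 library), the secreted median from -0.23 (without the first) to -0.051 (without the second) and, in SIS3 against SB431542, from -0.15 (without the first) to 0.63 (without the second), Tgif1 with SB431542 from -0.00587 to 0.127 and Skil at E13.5 from -0.0491 to 0.0974.

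Counts of called genes moved far more under filters, tools, corrections and left-out columns, and the cause was not tested. With no filter they were 8 higher and 19 lower for SB431542, 335 and 1079 for SIS3, 1458 and 604 at E13.5 and 250 and 777 for SIS3 against SB431542. In the same order of comparisons, a mean of 5 CPM gave 24 and 106 for SIS3, 158 and 34 at E13.5, and 15 and 70. DESeq2 gave 6 lower for SB431542, 234 higher for SIS3, 435 and 134 at E13.5, and 153 higher. The 2 groups alone gave 63 and 169 for SIS3 and 41 and 125 for SIS3 against SB431542, and could not be fitted for the others, which then have no replicate. Removing predicted genes gave 65 and 270 for SIS3, 42 and 18 at E13.5, and 43 and 165, and removing the trends 72 and 172, 100 and 51, and 31 and 89. Leaving out a column gave 0 to 0 higher and 0 to 1 lower for SB431542, 98 to 150 higher and 390 to 558 lower for SIS3, 327 to 705 higher and 72 to 198 lower at E13.5 and 63 to 99 higher and 251 to 378 lower for SIS3 against SB431542. Without either SIS3 library no residual degree of freedom is left, so those are values with no test.

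Counting all 8 columns as replicates gave 95 higher and 164 lower for SB431542, 3158 and 3607 for SIS3, 5256 and 4485 at E13.5, and 2623 and 3182, since near-identical columns make the spread too small. With the replicate number as a block, these were 19 and 64, 2849 and 3345, 5006 and 4254, and 2328 and 2863. Columns with the same number did not deviate together (correlations of -0.0317 to 0.00548). As the columns of a pair were near-identical outside SIS3, these correlations cannot show whether the numbers were paired in the experiment. Among the 8 genes, the 8 columns as replicates also called Pmepa1 (0.0305), Ski (0.00261), Tgif1 (0.000616) and Bambi (0.00815) with SIS3, Pmepa1 (0.000789), Tgif1 (0.0402), Bambi (0.00366) and Thbs1 (0.0436) at E13.5, and Ski (0.0131) and Tgif1 (0.00115) in SIS3 against SB431542 (adjusted p by edgeR). The counts of all called genes in that setting, given above, are out of 17748 tested, so such calls were common in these 3 comparisons. The direction of Pmepa1 and Skil with SB431542 held under all 17 alternatives (-1.95 to -1.88 and -1.96 to -1.83). All 17 reuse the same SB431542 and E12.5 DMSO libraries, so they cannot show how replicate cultures would vary.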
